A study of Mus musculus with 4 samples.

Results

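A group of 10 genes of the blood clotting system were followed across age in the liver transcriptome of mice. They were taken by symbol from the deposited count files, and all 10 were present among the 33924 gene symbols listed there. These are the 3 chains of fibrinogen (Fga, Fgb and Fgg), the zymogens F2 (prothrombin), F7, F9 and F10, the cofactor F5, the contact factor F12, and Plg (plasminogen). The data consist of 4 RNA-sequencing libraries from liver of C57BL6 mice (male C57BL/6Rj according to the methods of the study), with ages of 3, 9, 15 and 21 months labelled as young, adult, old and very old. No genotype or treatment distinguishes the age classes. Each library was made from 1 pool of total RNA of 24 mice, with 1 μg from each mouse, and 4 mice were killed at each of 6 daily time points, so that daily rhythms were averaged and differences between mice cannot be seen. With 1 library per age there are no replicates, and every interval and chi-square test given here covers counting error and compares these libraries rather than the ages.

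Most plasma clotting proteins are made by hepatocytes and are secreted as inactive precursors. In the textbook cascade, F7 with tissue factor and F12 on the contact side start proteolytic steps that pass through F9 and F10, and F10 together with its cofactor F5 cleaves F2 to thrombin. Thrombin converts fibrinogen, a hexamer with a pair of each chain, to fibrin, and plasmin, which is made from Plg, dissolves the clot. F2, F7, F9 and F10 need carboxylation by a vitamin K-dependent enzyme.

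The counts on genes summed to between 525772 at 15 months and 958586 at 9 months. The reads of 35 bp started at capped 5’-ends, so that an mRNA should give reads in proportion to its molecules and not to its length. For this reason levels are given in cpm, the counts per 1000000 of the library's sum over genes, and were not divided by length. The levels hold only where the counted gene covers the start that was used, which gene counts cannot show. The defining genes of hepatocytes were abundant in every library, with Alb at between 54574 and 65169 cpm. The 5 platelet markers Pf4, Ppbp, Itga2b, Gp9 and Gp1ba together had only 10, 8, 2 and 2 counts at 3, 9, 15 and 21 months. The summed erythroid markers lay between 1376 cpm at 21 months and 2365 cpm at 9 months, the 6 Kupffer cell markers between 576 cpm at 3 months and 802 cpm at 21 months, and the 5 endothelial markers between 533 cpm at 21 months and 604 cpm at 3 months. At 9 months 3 of the 6 Kupffer cell markers were more than 1.5-fold higher than at 3 months, and Emr1 was lower (47 against 66 counts). Of these 3, Vsig4 (17, 43, 12 and 19 counts) reached the 20 counts needed only in the 9 month library. The count of 3 thus partly follows from that filter. The others were Marco (10 and 18 counts at 3 and 9 months) and Cd68 (25 and 41 counts). At 21 months 3 of the 5 endothelial markers (Stab2, Cdh5 and Pecam1) were more than 1.5-fold lower, and Clec4g and Oit3 were not. Of all 4295 genes tested for folds, 37.5% at 9 months and 38.2% at 21 months were past 1.5-fold in either direction. Several of these markers had few counts, such as Pecam1 with 29 at 3 months and 15 at 21 months. The part of these cells in the results was not tested. In such bulk libraries, fewer cells of a type and less RNA per cell cannot be told apart.

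The 10 genes together took 2.08% of the counts at 3 months (95% Wilson interval from 2.05% to 2.11%), 2.10% at 9 months (from 2.07% to 2.13%), 1.92% at 15 months (from 1.88% to 1.96%) and 1.94% at 21 months (from 1.91% to 1.97%). Most of this came from the fibrinogen chains, with between 1.49% at 15 months and 1.69% at 9 months. In each of the 4 libraries the order of the first 6 genes was the same: Fgb, Fga, Fgg, Plg, F2 and F10. Below them F9 and F5 could not be separated, as their 95% Poisson intervals overlapped in every library, and F7 was the lowest with between 67 and 145 counts. Plg and F2 overlapped only at 3 months, F10 and F9 only at 15 months, and F5 and F12 only at 21 months. Divided by the length of the longest annotated transcript, the mean counts per kb would place F2 before Plg, and F5, with the longest transcript (7430 bases), would move from the eighth to the last place.

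**Figure D1:**
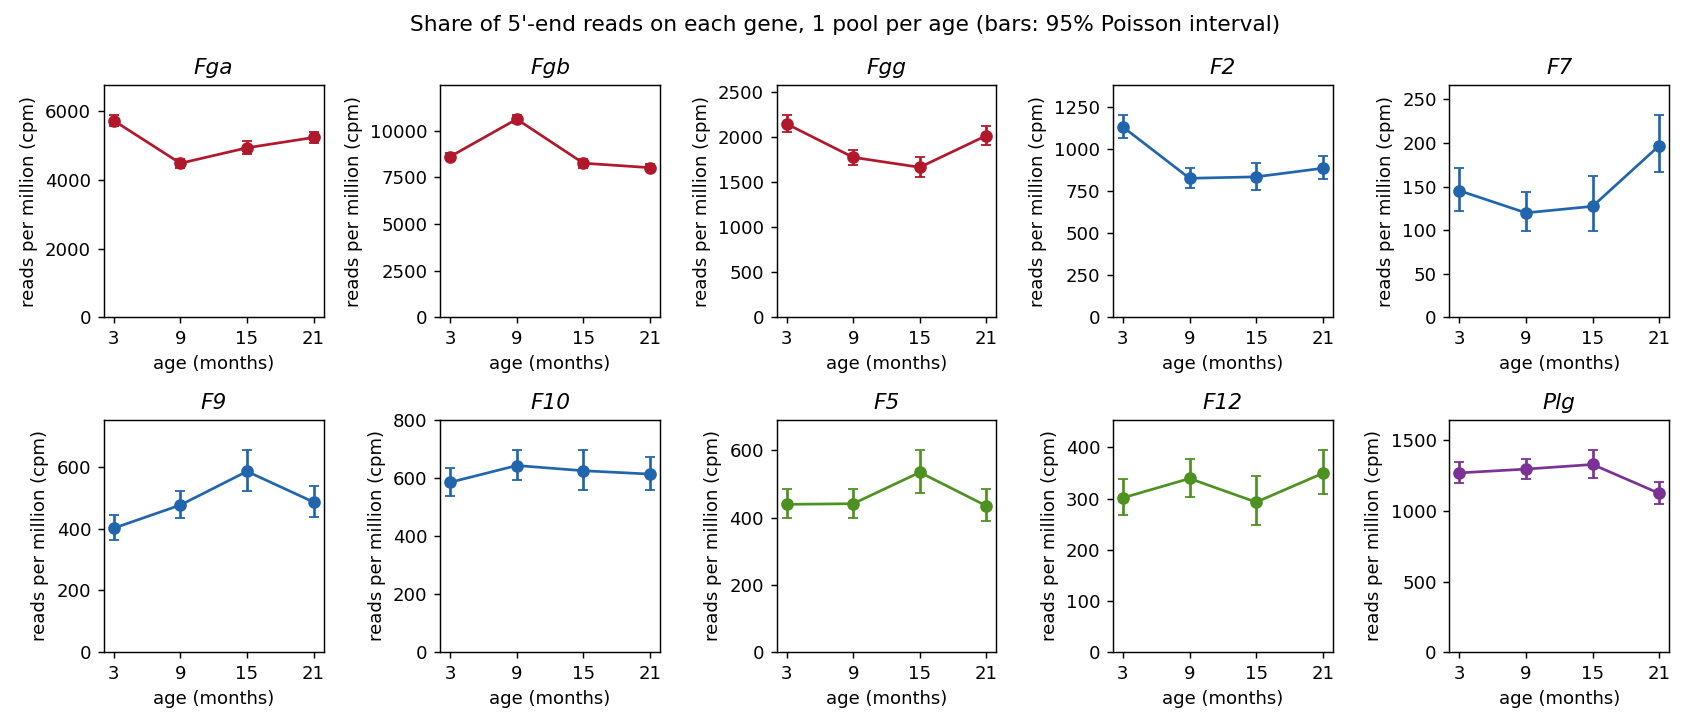
Share of the counts on genes (in cpm, linear axes from 0) of each of the 10 genes against age in months, with 1 pooled library per age and bars for the 95% Poisson interval of counting error. Fgb is highest at 9 months (10618 cpm) while Fga is highest at 3 months (5731 cpm), F2 is highest at 3 months (1131 cpm) and F9 is lowest at 3 months (402 cpm).

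The fibrinogen genes lie side by side on chromosome 3 of NCBIM37, the assembly also called mm9. Fgg (82811781 to 82818975, plus strand) is followed after 11099 bases by Fga (82830075 to 82838036, plus strand), and after another 8132 bases by Fgb (82846169 to 82853725, minus strand). All 3 are annotated as protein-coding, and no other annotated gene overlaps them. Since the reads were anchored at the start of the mRNA, the 250 bases before the RefSeq start of each chain are shown, in the direction of transcription. The sequences come from the RefSeq promoter table of build GRCm38.p6, which held 9 of the 10 genes (all but Plg), and each was found once in NCBIM37 by an exact match. There they occupy chr3:82829825-82830074 for Fga, chr3:82853786-82854035 for Fgb on the minus strand and chr3:82811396-82811645 for Fgg. Capitals mark CTGGGAA, the core of the type II interleukin-6 response element of acute-phase genes, and GTTAAT, a part of the site of the hepatocyte factor HNF1, on either strand (GTTAAT reads ATTAAC on the other).
Fga: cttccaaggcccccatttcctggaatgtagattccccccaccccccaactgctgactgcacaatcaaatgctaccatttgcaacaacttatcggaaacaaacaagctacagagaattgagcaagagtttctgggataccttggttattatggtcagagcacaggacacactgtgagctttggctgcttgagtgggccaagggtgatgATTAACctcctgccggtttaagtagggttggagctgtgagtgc
Fgb: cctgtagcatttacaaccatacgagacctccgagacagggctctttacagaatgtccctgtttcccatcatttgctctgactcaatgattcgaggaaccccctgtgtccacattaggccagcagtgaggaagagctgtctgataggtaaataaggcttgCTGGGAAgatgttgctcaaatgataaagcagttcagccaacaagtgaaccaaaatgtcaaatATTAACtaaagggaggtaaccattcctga
Fgg: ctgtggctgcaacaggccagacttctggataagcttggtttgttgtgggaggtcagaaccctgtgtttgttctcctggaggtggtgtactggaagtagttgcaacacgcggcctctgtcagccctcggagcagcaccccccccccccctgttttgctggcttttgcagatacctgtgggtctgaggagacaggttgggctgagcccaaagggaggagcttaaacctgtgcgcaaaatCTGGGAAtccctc

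CTGGGAA was found 91 bases before the start of Fgb and 13 bases before that of Fgg, and ATTAAC 43 bases before the start of Fga and 29 bases before that of Fgb. These motifs do not overlap. Over all 32851 RefSeq promoters of the same length, 9.10% held CTGGGAA and 6.43% held GTTAAT on either strand. The starts of Fgb and Fgg in RefSeq lie 60 and 135 bases before those of the GENCODE M1 annotation, so that the distances depend on the annotation used. Whether reads from the earlier starts were counted on these genes is not known. This also limits the order of levels and the ratios between the chains. A match of letters is a description and not a binding site.

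The chains did not keep a constant ratio to each other. Fga, encoding the Aα chain, had 5478, 4301, 2596 and 3855 counts at 3, 9, 15 and 21 months, or 5731, 4487, 4938 and 5238 cpm, and was thus highest at 3 months. Fgb, encoding the Bβ chain, had 8233, 10178, 4343 and 5903 counts, or 8613, 10618, 8260 and 8021 cpm, and was highest at 9 months. Fgg, encoding the γ chain, had 2056, 1705, 877 and 1487 counts, or 2151, 1779, 1668 and 2020 cpm, with the lower values at 9 and 15 months. Hence the 9 month library combined the highest Fgb with a low Fga and Fgg.

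A ratio of 2 counts from the same library does not depend on any scaling between libraries. There were 1.503 reads of Fgb for each read of Fga at 3 months (exact Clopper-Pearson 95% interval from 1.45 to 1.56), 2.37 at 9 months (from 2.28 to 2.45), 1.67 at 15 months (from 1.59 to 1.76) and 1.53 at 21 months (from 1.47 to 1.60). The ratio at 9 months was 1.57 times that at 3 months (exact conditional interval from 1.498 to 1.65), and the ratios at 3 and 21 months differed by less than counting error (1.02 times, from 0.966 to 1.07). Against Fgg, Fgb was likewise highest at 9 months, with 4.004, 5.97, 4.95 and 3.97 reads per read of Fgg. Fgg over Fga stayed between 0.338 at 15 months and 0.396 at 9 months, and its intervals against 3 months included 1 at 9 months (from 0.979 to 1.14) and 21 months (from 0.949 to 1.11) but not at 15 months (0.900 times, from 0.820 to 0.988). Thus the 9 month difference concerned Fgb against both other chains, and Fga and Fgg kept close to each other.

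**Figure D2:**
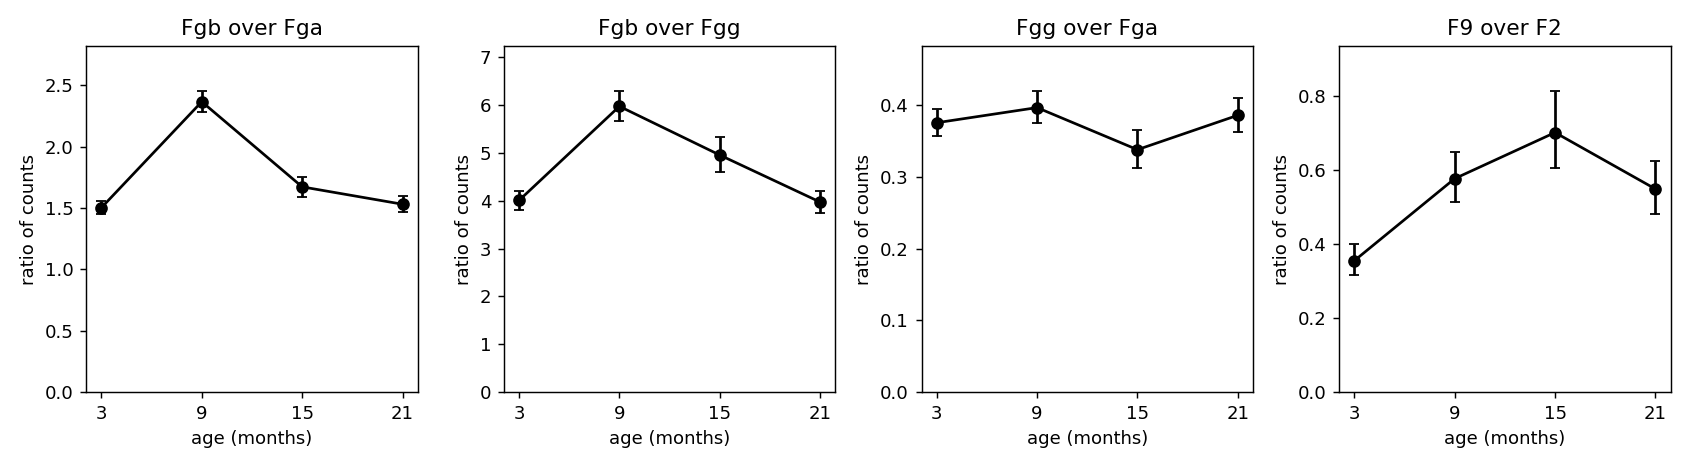
Ratio of the counts of 2 genes within the same library (linear axes from 0) against age in months, with 1 pool per age and bars for the exact 95% interval of counting error. Fgb over Fga and Fgb over Fgg are highest at 9 months (2.37 and 5.97), Fgg over Fga varies between 0.338 and 0.396, and F9 over F2 is lowest at 3 months (0.355) and highest at 15 months (0.702).

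For comparisons between libraries, the centered log-ratio (clr) of the study was used, which is the natural logarithm of a count divided by the geometric mean over the 8704 genes that no library lacked. On this scale, Fgb at 9 months was 1.26 times the 3 month value (exact interval from 1.23 to 1.30), Fga 0.803 times (from 0.771 to 0.836) and Fgg 0.848 times (from 0.795 to 0.905). At 15 months Fga was at 0.788, Fgb at 0.877 and Fgg at 0.709 times the 3 month value, and at 21 months at 0.890, 0.907 and 0.915 times. These comparisons share the 3 month library. At 15 months the median log2 fold of all 4295 genes with at least 20 counts in a library was -0.16, and that of the 737 genes with 100 counts or more on average was -0.20, so that the value of Fgb (-0.19) was close to that of the median gene, and Fga (-0.34) and Fgg (-0.50) lay below it. The signs at 9 and 15 months were the same in all 7 settings tried (the clr, TMM, library totals, DESeq2 size factors, the geometric mean of Atp5h, Gsk3b and Sirt2, a minimum of 10 counts in every library, and libraries thinned to the smallest total). At 21 months each chain lay above the 3 month value in 1 of the 7, with the geometric mean of Atp5h, Gsk3b and Sirt2. These 3 genes are the core set that the study recommends for normalisation of mouse liver across age. On their scale the log2 fold of Fgb at 15 months was -0.0048, close to no difference.

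**Figure D3:**
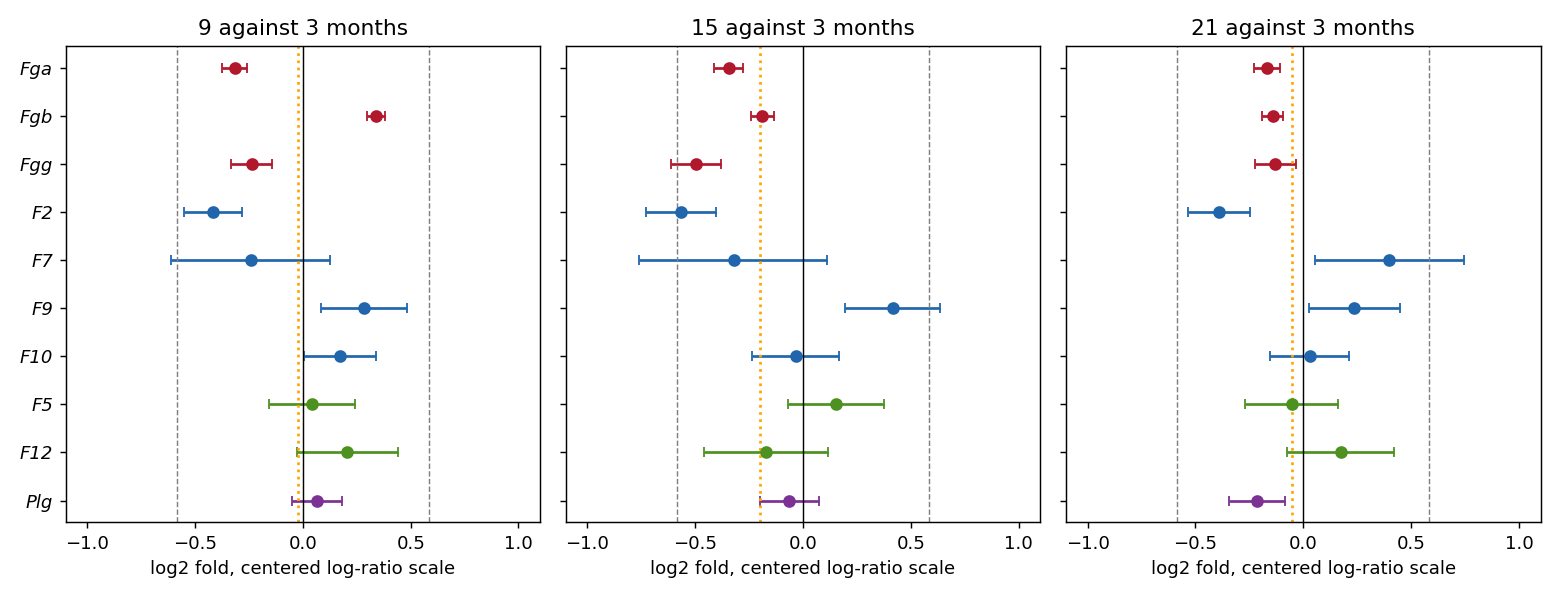
Log2 fold on the clr scale of the fibrinogen chains (red), vitamin K-dependent zymogens (blue), F5 and F12 (green) and Plg (purple) at 9, 15 and 21 months against the same 3 month library, with bars for the exact 95% interval of counting error, dashed lines at 1.5-fold and a dotted line at the median of the 737 genes with 100 counts or more on average. No point lies outside the dashed lines, F2 at 15 months (-0.57) is closest to one, F2 is below and F9 above 0 at all 3 ages, and Fgb is above 0 only at 9 months.

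The fibrinogen chains are acute-phase genes in the textbook sense, and another 12 acute-phase genes were therefore listed for comparison. Of these, 9 had at least 20 counts in a library and at least 1 in every library. At 15 months their median log2 fold was 0.36, against -0.34 for the 3 fibrinogen chains and -0.16 for all genes. Saa1 (11, 11, 28 and 17 counts) and Saa2 reached 20 counts only in the 15 month library, where they were highest. Saa3 (18, 0, 1 and 2 counts), Socs3 (12, 6, 3 and 4) and Lcn2 (0, 9, 32 and 23) were left out. The 15 month median thus partly follows from this filter and gives no support for a difference. The most abundant members were Hpx, encoding the heme carrier hemopexin, with 4491, 3544, 2186 and 3437 counts (0.809 times at 15 months, from 0.769 to 0.852), Hp, encoding haptoglobin, with 2541, 2256, 1967 and 2215 counts (1.29 times, from 1.21 to 1.37), and Itih4 with 1194, 1028, 881 and 1072 counts (1.23 times, from 1.12 to 1.34). The list was not uniform. All members but the 3 most abundant were named here after their values were seen. Orm1, encoding an orosomucoid, had 1010, 967, 471 and 755 counts (0.775 times, from 0.694 to 0.866), and Saa2, a serum amyloid A gene, had 4, 11, 33 and 4 counts. Its paralogue Saa1 is similar in sequence, so that reads could be lost or shared between them. Whether the fibrinogen chains differed from this list was not tested.

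Among the vitamin K-dependent zymogens, F2 and F9 lay on opposite sides of their 3 month values at every later age. F2 encodes prothrombin, the precursor of thrombin, and occupies bases 91465477 to 91476571 of chromosome 2 (minus strand). F9 encodes the factor that is missing in haemophilia B and occupies bases 57252641 to 57283936 of chromosome X (plus strand). The 250 bases before their RefSeq starts (chr2:91476615-91476864, minus strand, and chrX:57252391-57252640 on NCBIM37) are shown because these genes had the opposite directions, with the same motifs in capitals.
F2: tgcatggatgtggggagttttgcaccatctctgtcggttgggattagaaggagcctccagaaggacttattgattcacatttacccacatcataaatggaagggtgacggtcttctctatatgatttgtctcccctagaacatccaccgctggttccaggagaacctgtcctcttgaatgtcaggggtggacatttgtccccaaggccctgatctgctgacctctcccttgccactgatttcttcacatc
F9: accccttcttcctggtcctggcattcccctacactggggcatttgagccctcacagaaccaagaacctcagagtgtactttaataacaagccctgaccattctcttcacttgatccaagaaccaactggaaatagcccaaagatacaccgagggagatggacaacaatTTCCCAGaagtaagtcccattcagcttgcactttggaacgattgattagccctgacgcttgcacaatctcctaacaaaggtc
F9 held CTGGGAA on the opposite strand (TTCCCAG) 82 bases before the start, and neither motif was found in this window of F2. Of the 9 promoters searched, 3 held CTGGGAA and 2 held GTTAAT, and F7, F10, F5 and F12 held neither. A relation of the motifs to the directions was not tested.

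F2 had 1081, 792, 439 and 652 counts at 3, 9, 15 and 21 months, or 1131, 826, 835 and 886 cpm, and was thus higher at 3 months than at the 3 later ages, which overlapped each other. On the clr scale it was at 0.749 times (from 0.683 to 0.822), 0.675 times (from 0.603 to 0.755) and 0.763 times (from 0.691 to 0.841) the 3 month value at 9, 15 and 21 months. F9 had 384, 457, 308 and 358 counts, or 402, 477, 586 and 486 cpm, with the lowest share at 3 months. It was at 1.22 times (from 1.06 to 1.40), 1.33 times (from 1.14 to 1.55) and 1.18 times (from 1.02 to 1.37). The directions of both genes were the same in all 7 settings. Within the library, there were 0.355 reads of F9 per read of F2 at 3 months (from 0.315 to 0.399), 0.577 at 9 months (from 0.513 to 0.648), 0.702 at 15 months (from 0.605 to 0.813) and 0.549 at 21 months (from 0.481 to 0.626). Compared with 3 months the ratio was 1.62 times (from 1.37 to 1.92), 1.98 times (from 1.63 to 2.39) and 1.55 times (from 1.29 to 1.85) as high. Because this pair was picked for its values among the 45 pairs that the 10 genes form, these ratios are a description. Of the 45 pairs, 20 had a ratio that differed by 1.5-fold or more between 2 ages (F9 over F12 by just 1.5-fold), and the median of the largest difference was 1.446-fold. The share over pairs of other abundant genes was not calculated, so that 20 of 45 cannot be read as a trait of these genes.

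F7 and F10 are neighbours on the plus strand of chromosome 8, F7 from 13026034 to 13035809 and F10 from 13037308 to 13056676, with 1498 bases between them. F7 encodes the protease that acts with tissue factor, and F10 the protease that activates prothrombin. F7 had 139, 115, 67 and 145 counts, or 145, 120, 127 and 197 cpm, and was thus highest at 21 months. It was the only gene of the 10 that differed more than 1.5-fold between any pair of ages, with 1.65 times as much at 21 as at 15 months (from 1.22 to 2.23) and 1.56 times as much as at 9 months (from 1.21 to 2.01). F10 had 560, 617, 329 and 452 counts, or 586, 644, 626 and 614 cpm, and no interval against 3 months excluded 1 except at 9 months (1.13 times, from 1.003 to 1.27). Hence F7 over F10 was 0.248 at 3 months (from 0.205 to 0.299), 0.186 at 9 months (from 0.151 to 0.228), 0.204 at 15 months (from 0.154 to 0.266) and 0.321 at 21 months (from 0.264 to 0.388). The interval of this ratio at 21 months relative to 3 months included 1 (1.29 times, from 0.984 to 1.70). Counting noise alone would give 18.8% of the variance of clr of F7.

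F5 and F12 had no interval against 3 months that excluded 1, and Plg had 1. F5 is the cofactor of activated F10 and lies on chromosome 1 from 166081969 to 166150408. It had 420, 423, 281 and 320 counts, or 439, 441, 534 and 435 cpm, and its intervals against 3 months reached from 0.830 to 1.297 over the 3 ages. The noncoding gene Gm16548 on the opposite strand and the pseudogene Gm16588 overlap F5, but they had only 2 and 0 counts in total. F12, the first factor of the contact pathway, lies on chromosome 13 from 55519319 to 55528154 and had 288, 325, 154 and 257 counts, or 301, 339, 293 and 349 cpm. Its intervals against 3 months reached from 0.726 to 1.36, but the 15 month value was 0.770 times that at 9 months (from 0.632 to 0.936) and lower than that at 21 months. Plg, on chromosome 17 from 12571475 to 12612250, had 1214, 1243, 699 and 828 counts, or 1270, 1297, 1329 and 1125 cpm. It was lower at 21 months (0.862 times, from 0.789 to 0.943), while the intervals at 9 and 15 months included 1. With the geometric mean of Atp5h, Gsk3b and Sirt2 its log2 fold at 21 months was -0.0088 instead of -0.21.

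None of the 10 genes was past 1.5-fold against 3 months in any of the 3 comparisons. For comparison, 37.5% of all 4295 genes tested were past this fold at 9 months, 40.9% at 15 months and 38.2% at 21 months. These shares contain many genes with few counts, and among the 737 genes with 100 counts or more on average, to which all 10 belong, they were 15.1%, 21.3% and 12.6%. Similarly, 1 of the 10 genes had a largest pairwise difference above 1.5-fold, beside 75.7% of all genes and 41.2% of the abundant ones. With the geometric mean of Atp5h, Gsk3b and Sirt2 as the scale, F9 at 15 months and F7 at 21 months passed 1.5-fold.

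The counts of 7 of the 10 genes differed between libraries by more than counting noise. In Pearson's chi-square test of the 4 counts with Benjamini-Hochberg adjustment over 5090 genes, Fga, Fgb, Fgg, F2, F7, F9 and Plg were called, with an adjusted p from 1.48e-136 for Fgb to 0.00671 for F9. F10 (adjusted p = 0.176), F5 (0.436) and F12 (0.0671) were not. The test called 37.7% of all genes and 71.6% of the genes with 100 counts or more on average, so that 7 of 10 is near the share of other abundant genes. F2 and F9 were no longer called without the 3 month library, and without the 21 month library F7 and Plg were lost and F12 was called. With the geometric mean of Atp5h, Gsk3b and Sirt2, Plg was lost and F5 and F12 were called.

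The linear trend with age was the only test in which the libraries themselves gave the spread. In edgeR's quasi-likelihood test no member was called, beside 0.108% of the 5569 genes tested (6 genes). No member reached an unadjusted p of 0.05 in edgeR or in DESeq2's Wald test, which called no gene at all after adjustment. The lowest unadjusted edgeR p was 0.285, for F2, with a slope of -0.36 on the log2 scale over the 18 months (adjusted p = 0.998). The slope of F9 was 0.30 and that of F7 0.40. All 3 slopes depended on single libraries: without the 3 month library that of F2 was 0.05, that of F9 -0.06 and that of F7 0.97, and without the 21 month library they were -0.72, 0.76 and -0.35. DESeq2 gave slopes of -0.37 ± 0.33 (SE) for F2, 0.28 ± 0.36 for F9 and -0.27 ± 0.31 for Fgb over the same span, so that the errors were about as large as the slopes or larger.

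The criteria of the study for stable expression were applied to the 8704 genes with a count at every age, whereas the study used its own smaller set of 5’-ends, so that the medians are not the same. All 10 genes met these criteria, which ask for a mean clr larger than that of the median gene (-0.21) and for a variance smaller than the median one (0.16). Of all 8704 genes 38.1% met both, but of the abundant genes 96.1% did, so that 10 of 10 is near the share of other abundant genes. The mean clr ranged from 2.11 for F7 to 6.22 for Fgb. The variance was lowest for F5 (0.00372) and F10 (0.00394), of which counting noise would give 76.8% and 54.9%, followed by Plg (0.00687), Fga (0.0120), F9 (0.0144), F12 (0.0145), Fgg (0.0213), Fgb (0.0273), F2 (0.0281) and F7 (0.0502). For Fgb and Fga counting noise would give only 0.568% and 2.20% of the variance.

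**Figure D4:**
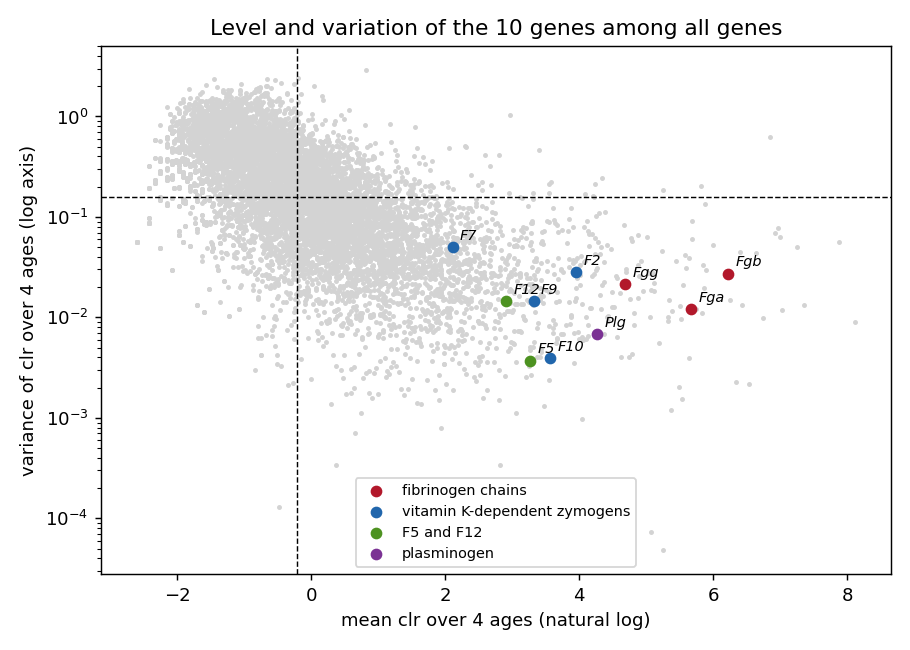
Mean of the clr over the 4 ages (natural logarithm) against its variance (log axis) for the 8704 genes counted at every age (grey) and the 10 genes (coloured by group), with dashed lines at the medians of all genes. All 10 genes lie right of the vertical line (-0.21) and under the horizontal line (0.16), from F5 (0.00372) to F7 (0.0502).

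The remaining genes of the pathway were taken from lists of other procoagulant factors, anticoagulants, fibrinolysis, the vitamin K cycle and the cargo receptor of F5 and F8, 29 genes in all. Of these, 18 had enough counts to be compared, and 19 entered the trend test, in which none was called (none at an unadjusted edgeR or DESeq2 p of 0.05 either). Past 1.5-fold against 3 months were 3 of the 18 at 9 months (Kng1 higher, F13b and Vkorc1 lower), 3 at 15 months (Kng1 higher, F11 and F13b lower) and 4 at 21 months (Kng1 and Mcfd2 higher, F11 and F13b lower), and F11 is named here after its values were seen. Of all 4295 genes tested, 37.5%, 40.9% and 38.2% were past this fold at 9, 15 and 21 months. Of the 737 genes with 100 counts or more on average, 15.1%, 21.3% and 12.6% were. The median log2 folds of the 18 genes, -0.07, -0.34 and 0.01 at these ages, stood beside -0.02, -0.20 and -0.05 for the abundant genes.

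Among these 18 genes the largest difference from 3 months was that of Kng1, encoding kininogen, the cofactor of the contact system. It had 1719, 4701, 2065 and 2569 counts, or 1798, 4904, 3928 and 3491 cpm, and was thus higher in each later library. On the clr scale it was 2.80 times (from 2.65 to 2.96), 1.997 times (from 1.87 to 2.13) and 1.89 times (from 1.78 to 2.01) the 3 month value at 9, 15 and 21 months. Kng2 is a close paralogue with 97, 117, 53 and 83 counts, so that the counts of both depend on how shared reads were treated. Klkb1, encoding prekallikrein, had 374.5, 304.6, 317.6 and 341.1 cpm, and F13b, encoding the carrier subunit of factor XIII, had 158, 89, 63 and 81 counts. Thus F12 and Klkb1 did not accompany Kng1 past 1.5-fold, although the difference between these genes was not tested.

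Of the anticoagulants, Serpinc1, encoding antithrombin, the main inhibitor of thrombin, had 2860, 2561, 1173 and 2058 counts and was at 0.682 times the 3 month value at 15 months (from 0.637 to 0.730). Serpina10, which inhibits activated F10, had 271, 202, 109 and 167 counts (0.669 times at 15 months, from 0.530 to 0.838), and Serpind1, the heparin cofactor, had 489, 460, 299 and 432 counts (1.02 times, from 0.877 to 1.18). At 9 and 21 months Serpinc1 was at 0.916 and 0.910 times, nearer to its 3 month value than F2. In fibrinolysis, Hrg had 2429, 3052, 1366 and 2089 counts, the plasmin inhibitor Serpinf2 528, 488, 229 and 376 counts, and Cpb2, whose product protects fibrin from plasmin, 237, 290, 174 and 214 counts, none of them past 1.5-fold.

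The vitamin K cycle serves the carboxylation of F2, F7, F9 and F10 alike. Ggcx, the carboxylase, had 112, 100, 47 and 84 counts, and Vkorc1, the reductase blocked by warfarin, had 177, 110, 86 and 142 counts and was at 0.636 times the 3 month value at 9 months (from 0.496 to 0.811). Vkorc1l1, its paralogue, had 5, 5, 12 and 4 counts. Lman1 and Mcfd2, which carry F5 and F8 out of the endoplasmic reticulum, had 88, 92, 54 and 88 counts and 56, 56, 26 and 74 counts. Genes of clotting that are mostly expressed outside hepatocytes were near 0. F3, encoding tissue factor, had 0, 4, 0 and 0 counts, F13a1 0, 0, 0 and 2 counts, Vwf 11, 4, 6 and 3 counts and Plaur none, where 3 counts correspond to 3.14, 3.13, 5.71 and 4.08 cpm. F8, made by sinusoidal endothelium, had 47, 46, 25 and 37 counts.

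**Figure D5:**
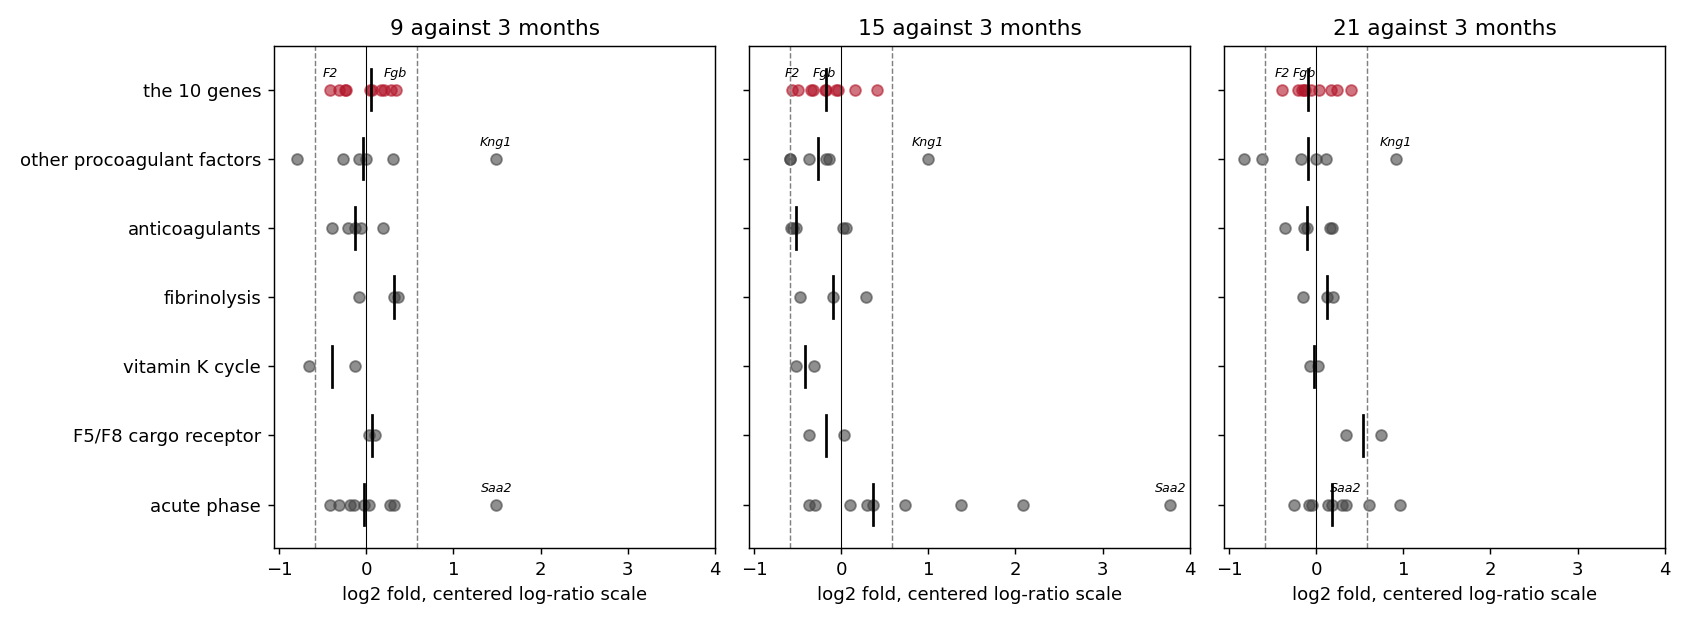
Log2 fold on the clr scale at 9, 15 and 21 months against the same 3 month library for the 10 genes (red) and the lists of related genes (grey), with 1 point per gene with at least 20 counts in a library and 1 in every library, a bar at the median of each list and dashed lines at 1.5-fold. The 10 genes lie inside the dashed lines at every age, and Kng1 lies outside at all 3 ages (1.48, 0.998 and 0.92). The median of the acute-phase list is above 0 at 15 months (0.36), but Saa1 and Saa2 reached 20 counts only in that library.

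The profiles over the 4 ages were also compared with those of 727 other genes with 100 counts or more on average, by the root mean square distance of the centred log2 values. Nearest to the summed fibrinogen chains were Ces1f (distance of 0.00911), Sardh (0.0279), Nr1d1 (0.0324), Bckdha (0.0347) and Lass2 (0.0403). Nearest to the summed vitamin K-dependent zymogens were Dgat2 (0.0148), Tmprss6 (0.0243), Cyp8b1 (0.0258), Atp5a1 (0.0262) and Apoe (0.0280). With only 4 libraries a small distance is easily found among so many genes. The sums also hide opposite members: those of the zymogens were at 0.936, 0.878 and 0.939 times the 3 month value at 9, 15 and 21 months, between the lower F2 and the higher F9.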

How the data were processed

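Capped 5’-ends of pooled liver RNA were sequenced by the authors with 35 bp SOLiD reads on 1 lane and mapped with CLC Genomic workbench to mm9. The deposited values are unnormalised read counts for each gene symbol. HTSeq is named in the submitters' processing notes, and its version, annotation and strand setting are not given in the sources used here. Rows that name no gene were left out. Reads without a unique alignment made up 72.2% to 76.7% of all records, those on no feature 15.5% to 19.0% and those on genes 6.67% to 8.42%. In the first 100 bases of the GENCODE M1 transcripts of the 10 genes, no window of 35 bases had a second place in NCBIM37 with at most 1 mismatch. Some windows of F2, F7, F9, F10 and F12 had no exact place there at all (49 of 80 were found for F12 and 64 of 82 for F7). The bases between the earlier RefSeq starts of Fgb and Fgg and their GENCODE M1 starts were not covered. Whether reads started at annotated 5’-ends could not be read from gene counts. Reads carry no molecular identifiers, so that intervals cover counting error only.

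The clr, its variance (divisor 3) and exact Clopper-Pearson and Poisson intervals were calculated in Python 3.11.15 with scipy 1.17.1. The chi-square test used genes with at least 40 counts in total. The trend was fitted over the whole table with edgeR 4.0.16 (TMM, filterByExpr, 2 residual degrees of freedom) with Benjamini-Hochberg adjustment, and with DESeq2 1.42.0. Both tests were first tested on simulated data, with 8-fold changes for the trend and 4-fold changes for the chi-square test. These were larger than any difference of the 10 genes, so that the power for smaller differences was not examined. The named genes were all 10 members, the 3 most abundant genes of each list and the 5 nearest profiles. Other genes of the lists that the text names were chosen after their values were seen. Members and lists were chosen with earlier results of these data known. Positions come from GENCODE M1, and the promoters were taken from RefSeq. Backgrounds over abundant genes, pairwise folds and the chi-square test without each library were added after seeing the data.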

Additional observations from a re-analysis of the deposited data

How the results depend on the processing

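The number of members with a linear trend with age was 0 in all 9 settings (edgeR with TMM, DESeq2 size factors, library totals or no filter, DESeq2's Wald test, and without each library), with a lowest unadjusted p of 0.112. Over all genes tested, these settings called between 0 and 23 genes. The chi-square test called between 5 and 8 members in 10 settings, beside 25.3% to 39.5% of all genes tested. No member passed 1.5-fold against 3 months in any setting except the geometric mean of Atp5h, Gsk3b and Sirt2, where 2 did. On that scale 67.1% of all 4295 genes passed it at 1 or more ages. All 10 members met the criteria of the study in all 8 settings, beside 33.2% to 38.1% of all genes. Thinned to the smallest total, Fgb over Fga at 3 months was 1.57 instead of 1.503, outside its counting interval, and the other 5 thinned ratios over Fga stayed within theirs (the 15 month library is the smallest and was not thinned). Of 180 single fold values under other settings, 162 stayed within the counting interval of the value given, and 23 of the 30 folds had the same sign in all 7 settings (the exceptions were Fga, Fgb, Fgg and F5 at 21 months and F10, F12 and Plg at 15 months). At 15 months the median log2 fold of all genes was -0.16 with the clr, -0.04 with library totals and 0.02 with the 3 marker genes. No paired analysis was possible because each age has 1 library.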
